A study of Mus musculus with 27 samples.

Results

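Dglucy, Ttll6, Ahnak2, Ano3, Ephx2 and Dnah8 are 6 autosomal genes of the mouse chosen by their log2 differences from control after RNA interference (RNAi) against MOF in the female embryonic stem (ES) cell line PGK12.1, which were among the highest on the array. They are measured by 8 probesets, of 35556 on the array, since Ahnak2 and Ano3 have 2 probesets each. All 8 probesets passed the filter on low values, a mean log2 value of at least 6, which left 16283 probesets for the tests. Those of Ano3 passed only through the 4 WD44 arrays, since without them they averaged 5.98 and 5.80. The comparison that chose the genes, MOF RNAi in PGK12.1, is given as a description, with no test of the 6 genes. Its calls serve only to rank probesets and to give the share called over all of them.

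RNA from ES cells transfected with small interfering RNAs (siRNAs) was hybridised to 27 Affymetrix arrays in 12 experiments, each with a control array of its own that received negative control siRNAs. In PGK12.1, derived from blastocysts of a 129 female and a (129 X PGK)F1 male, there were 3 arrays after MOF RNAi and 3 controls (experiments 1 to 3), and 3 arrays after NSL1 RNAi (C to E), 2 after combined MOF and MSL1 RNAi (D and E) and 3 after MSL1 RNAi (A to C) beside 5 controls (A to E). MOF RNAi was also run in 2 experiments in each of 2 male lines, WD44, from BL6 blastocysts, and E14, labelled as a Cast/BL6 hybrid, with 2 MOF and 2 control arrays per line. Cells received 100 pmol of siRNA, with 50 pmol of Msl1 siRNA added in the combined knockdown, and were harvested at 48 h. In PGK12.1 experiments 1 and 2 both MOF and control cells were instead given a second round, of 400 pmol, and harvested 24 h later. Every group was grown on mouse embryonic fibroblast feeders with leukemia inhibitory factor and plated on gelatin to remove the feeders before RNAi. Each line is a single cell line, so sex, strain and line cannot be told apart, and p-values measure the spread between separate RNAi treatments.

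MOF, encoded by Kat8, is a histone acetyltransferase that acetylates histone H4 and acts in the MSL complex, which holds MSL1, and in the NSL complex, which holds NSL1 and sits at promoters of many housekeeping genes. The 6 genes belong to unrelated families. Dglucy encodes D-glutamate cyclase, a mitochondrial enzyme, and Ephx2 encodes soluble epoxide hydrolase, which opens fatty acid epoxides. Ttll6 encodes a tubulin polyglutamylase and Dnah8 an axonemal dynein heavy chain, both known from cilia and flagella. Ano3 encodes a membrane protein of the anoctamin family, and Ahnak2 a very large scaffold protein.

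Promoter sequences are shown for Dglucy, Ttll6 and Ahnak2, which form the pairs of genes whose differences were most and least alike on these arrays, those that chose the genes included. Each sequence runs 5′ to 3′ on the gene's strand, from 250 bases before the RefSeq start to 50 bases after it, in RefSeq's GRCm38.p6. RefSeq promoters were matched for 5 of the 6 genes, Ano3 with 2 of them. Capitals mark matches, on either strand, to TATAAA, the core of the TATA box, to CCAAT, bound by the factor NF-Y, to GGGCGG, bound by Sp-family factors, or to the p53 half-site consensus. The windows are chr12:100778807-100779106 on the plus strand (Dglucy), chr11:96133536-96133835 on the plus strand (Ttll6) and chr12:112795693-112795992 on the minus strand (Ahnak2).
Dglucy: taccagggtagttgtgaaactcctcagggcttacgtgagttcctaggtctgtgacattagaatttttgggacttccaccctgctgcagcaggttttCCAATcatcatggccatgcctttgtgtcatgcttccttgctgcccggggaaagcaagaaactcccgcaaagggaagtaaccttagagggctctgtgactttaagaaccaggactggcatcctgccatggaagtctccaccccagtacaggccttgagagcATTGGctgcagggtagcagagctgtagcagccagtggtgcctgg
Ttll6: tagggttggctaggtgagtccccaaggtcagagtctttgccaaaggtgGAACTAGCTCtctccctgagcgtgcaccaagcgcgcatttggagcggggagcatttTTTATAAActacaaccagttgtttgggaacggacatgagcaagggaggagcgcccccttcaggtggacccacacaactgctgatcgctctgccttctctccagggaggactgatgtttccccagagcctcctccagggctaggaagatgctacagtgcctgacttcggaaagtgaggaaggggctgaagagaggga
Ahnak2: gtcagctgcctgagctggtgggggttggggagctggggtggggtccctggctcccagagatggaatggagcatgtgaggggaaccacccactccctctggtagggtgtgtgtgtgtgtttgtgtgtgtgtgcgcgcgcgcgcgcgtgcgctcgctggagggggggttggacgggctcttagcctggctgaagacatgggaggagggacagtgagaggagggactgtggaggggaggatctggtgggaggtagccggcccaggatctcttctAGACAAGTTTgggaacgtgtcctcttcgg

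No searched motif stood in all of the windows. Dglucy held 3 CpG dinucleotides, Ttll6 8, Ahnak2 13 and Dnah8 16, against a median of 7 over 32851 RefSeq promoters. CCAAT stood in the Dglucy window, once on each strand, and in 37.4% of all promoters. Ttll6 held TATAAA on both strands in overlapping positions and one Ano3 window held it once, against 13.6% of promoters, while Dnah8 held GGGCGG, as did 35.7%. The p53 half-site consensus had a match in Ttll6 and in Ahnak2, and in 8.4% of promoters. A match describes the letters only.

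Kat8 and Msl1 were lower in the arrays labelled as their knockdowns. Kat8 fell by 1.22 on the log2 scale after MOF RNAi in PGK12.1, by 0.87 after combined RNAi, by 0.84 in WD44 and by 0.68 in E14, and Msl1 fell by 0.97 after MSL1 RNAi and by 0.46 after combined RNAi. The NSL1 label does not say whether Kansl1 or Nsl1 was targeted. After NSL1 RNAi the 2 probesets of Kansl1 had log2 differences of -0.24 and 0.50, and Nsl1 had 0.16 with a 95% interval of 0.03 to 0.28. All 10 markers of undifferentiated ES cells lay above the array median in each group. Array medians differed between sets of experiments, from 6.22 in PGK12.1 experiments 1 and 2 to 7.96 in WD44. Dnah8 control arrays of the same line, PGK12.1, read 6.81 to 7.14 in experiments 1 to 3 and 9.48 to 9.83 in experiments A to E, so differences are taken within an experiment and levels are not compared between sets.

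In the comparison that chose the genes, the 6 genes stood 0.46 to 1.29 above control on the log2 scale, with a median of 0.93, against 0.00 over all tested probesets. Dglucy read 8.28, 8.22 and 8.76 after MOF RNAi in experiments 1, 2 and 3, against 7.03, 7.00 and 7.37 in their controls. Its mean difference of 1.29 was the highest among called probesets, ranked with 1 probeset per gene and every probeset of the 6 genes. Each Dglucy MOF array lay above its control, as did 7202, 8015 and 8056 of the 16283 tested probesets in experiments 1, 2 and 3.

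Ttll6 read 7.68, 7.65 and 8.67 after MOF RNAi, against 6.80, 6.69 and 7.48 in the controls, a difference of 1.01. Dnah8 read 7.38, 7.54 and 8.00 after MOF RNAi, against 6.92, 6.81 and 7.14 in the controls, a difference of 0.68. In both genes the MOF array lay above its own control in every experiment. Experiment 3, with a single round of siRNA, read highest in each of these groups. Its array medians also differed from those of experiments 1 and 2, so round and array set cannot be told apart. Ephx2 read 8.49, 8.55 and 9.70 after MOF RNAi, against 7.61, 7.77 and 8.80 in the controls. Its groups overlapped because both arrays of experiment 3 were high, while the difference within each experiment was 0.88, 0.78 and 0.90.

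Ano3 read 6.45, 6.36 and 6.97 on probeset 10485718 after MOF RNAi, against 5.28, 5.70 and 5.79 in the controls, and its probeset 10485745 read 6.68, 6.49 and 6.96 against 5.83, 5.78 and 5.44. Both Ano3 probesets lay below the array median in every control array, so Ano3 was a dim gene on these arrays. The probesets of Ahnak2 disagreed in size, with differences of 1.07 on 10402783 and 0.46 on 10402787. The second of these has the higher mean and stands for Ahnak2 in the counts that follow. It ranked 93rd among the called probesets, with 1 probeset per other gene. Just inside the choice Dnah8 had a difference of 0.68, and the nearest genes that were not chosen were Plk2 at 0.71, Trp53inp1 at 0.68 and Dpp4 at 0.68. Higher calls made up 9.49% of tested probesets in this comparison, and the 6 genes were chosen on this comparison.

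**Figure D1:**
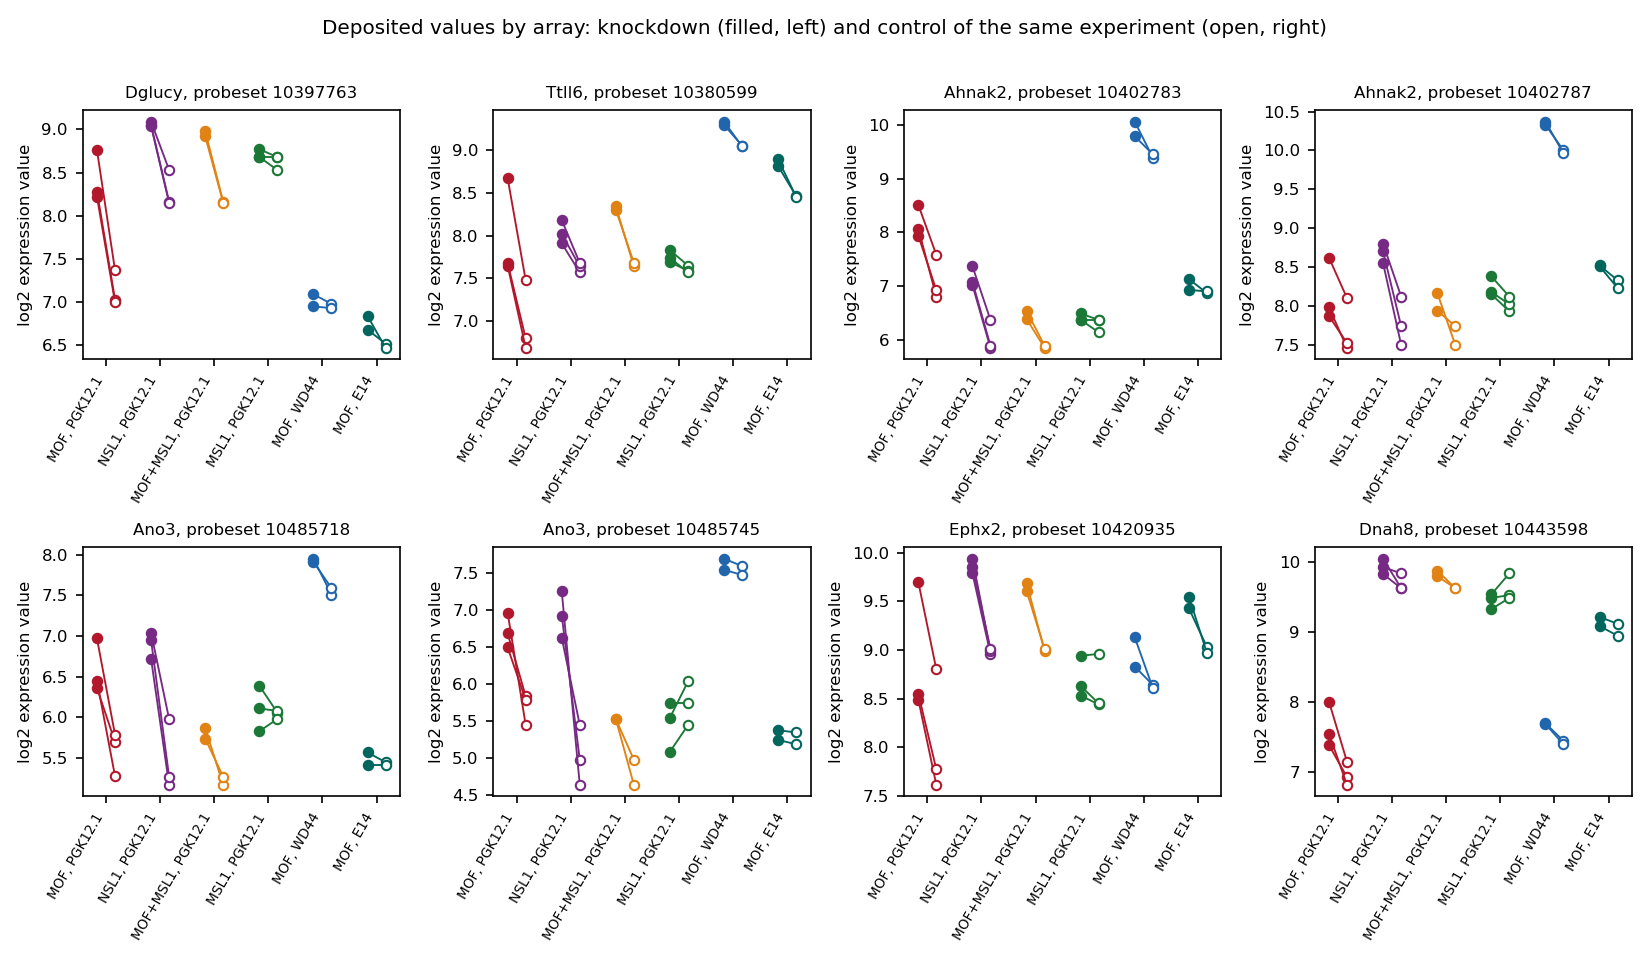
Log2 expression values of the 8 probesets (y axis) on each array, with the knockdown array as a filled point on the left and the control of the same experiment as an open point on the right, joined by a line, for the 6 knockdowns (x axis). Dglucy lines are steep in the PGK12.1 knockdowns of MOF, NSL1 and MOF with MSL1, and close to level in WD44, where the arrays read 7.09 and 6.95 after MOF RNAi against 6.98 and 6.93 in the controls.

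NSL1 RNAi in PGK12.1 was the first of the comparisons that the choice did not use, and all 6 genes rose in it. Higher calls made up 18.4% of all tested probesets, and the median log2 fold change of the 6 genes was 0.81, against -0.01 over all probesets. Calls are limma tests at a Benjamini-Hochberg adjusted p under 0.05 over the 16283 probesets, with the experiment as a block.

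Ano3 changed most. Its probeset 10485718 read 7.04, 6.72 and 6.95 after NSL1 RNAi in experiments C, D and E, against 5.98, 5.17 and 5.27 in their controls, a log2 fold change of 1.45 ± 0.11 (SE, adjusted p = 1.82e-07 by limma), or 2.73-fold. Its other probeset, 10485745, read 6.62, 6.92 and 7.25 after NSL1 RNAi, against 5.44, 4.97 and 4.63 in the controls, which gave 1.89 ± 0.19. In each experiment the NSL1 array lay above its own control on both Ano3 probesets.

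Ahnak2 read 8.80, 8.55 and 8.70 on probeset 10402787 after NSL1 RNAi, against 8.12, 7.50 and 7.74 in the controls, a log2 fold change of 0.87 ± 0.08 (adjusted p = 9.71e-07 by limma). On probeset 10402783 it read 7.37, 7.02 and 7.08 against 6.37, 5.85 and 5.89, and rose by 1.11 ± 0.08 (adjusted p = 6.51e-08 by limma). Here both Ahnak2 probesets moved by similar amounts.

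Among the enzymes, Ephx2 read 9.79, 9.94 and 9.85 after NSL1 RNAi, against 8.96, 8.99 and 9.01 in the controls, a log2 fold change of 0.89 ± 0.06 (adjusted p = 6.79e-08 by limma). Dglucy read 9.09, 9.05 and 9.04 after NSL1 RNAi, against 8.53, 8.16 and 8.15 in the controls, and rose by 0.75 ± 0.07, or 1.69-fold (adjusted p = 7.9e-07 by limma). In each experiment the NSL1 array lay above its control for both genes, as did 7626, 8029 and 7451 of the 16283 tested probesets.

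The genes known from cilia rose least. Ttll6 read 7.91, 8.02 and 8.18 after NSL1 RNAi, against 7.57, 7.64 and 7.68 in the controls, a log2 fold change of 0.40 ± 0.06 (adjusted p = 5.65e-05 by limma). Dnah8 read 9.92, 9.82 and 10.04 after NSL1 RNAi, against 9.83, 9.62 and 9.62 in the controls, a log2 fold change of 0.26 ± 0.07 (adjusted p = 0.0109 by limma). The Dnah8 call was lost without experiment E, at adjusted p = 0.11 without its NSL1 array and 0.0687 without its control array.

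Combined MOF and MSL1 RNAi in PGK12.1 raised 5 of the 6 genes, against 3.24% of tested probesets called higher. Their median log2 fold change was 0.57, against -0.001 over all probesets. This comparison shares the control arrays of experiments D and E with the NSL1 comparison.

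Dglucy read 8.98 and 8.92 after combined RNAi in experiments D and E, against 8.16 and 8.15 in their controls, a log2 fold change of 0.73 ± 0.08 (adjusted p = 0.000375 by limma). Ttll6 read 8.34 and 8.30 after combined RNAi, against 7.64 and 7.68 in the controls, and rose by 0.64 ± 0.07 (adjusted p = 0.000326 by limma). Ephx2 read 9.69 and 9.61 after combined RNAi, against 8.99 and 9.01 in the controls, and rose by 0.65 ± 0.07 (adjusted p = 0.000375 by limma). Each combined array of these 3 genes lay above its own control, as did 8268 and 7805 of the 16283 tested probesets in experiments D and E.

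Ahnak2 and Ano3 rose by less, with log2 fold changes of 0.37 ± 0.10 on 10402787 (adjusted p = 0.0369 by limma) and 0.50 ± 0.13 on 10485718 (adjusted p = 0.0386 by limma). On their other probesets, Ahnak2 rose by 0.56 (adjusted p = 0.00305 by limma) and Ano3 was not called, at 0.52 (adjusted p = 0.194 by limma). Ano3 read 5.87 and 5.74 after combined RNAi, against 5.17 and 5.27 in the controls of experiments D and E. Controls of experiments A to C, from another set of arrays, read 5.98 to 6.08. These Ano3 values from experiments D and E all lay under 6, the mean the filter asked for. Dnah8 read 9.87 and 9.79 after combined RNAi, against 9.62 in both controls, a log2 fold change of 0.18 with a 95% interval of -0.003 to 0.371 that did not pass the test (adjusted p = 0.247 by limma). Without the experiment as a block, Ahnak2 (adjusted p = 0.244 by limma) and Ano3 (0.775) were no longer called. Both were also lost without the filter on low values (0.067 and 0.0686). Leaving out any 1 of the 4 combined and control arrays of experiments D and E lost the Ano3 call and left 3 to 4 genes called. The Ahnak2 call was lost without the combined array of experiment D, where the value was 0.15 (adjusted p = 0.598 by limma), and without the control array of D (0.314) or E (0.085).

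MSL1 RNAi alone raised none of the 6 genes by limma, against 0.0983% of tested probesets called higher. At an unadjusted p under 0.05, 2 of the 6 genes passed, as did 1566 of all tested probesets. These were Ahnak2, with an interval of 0.08 to 0.43 (adjusted p = 0.265 by limma), and Ttll6, with 0.04 to 0.29 (0.336). Both lay above their own controls in experiments A, B and C, Ahnak2 by 0.16 to 0.26 and Ttll6 by 0.1 to 0.18. The intervals of Ano3, -0.11 to 0.36, and Dnah8, -0.30 to 0.01, held both signs. The log2 fold changes ran from -0.15 for Dnah8 to 0.26 for Ahnak2, with a median of 0.13. Dglucy read 8.77, 8.68 and 8.68 after MSL1 RNAi in experiments A, B and C, against 8.68, 8.68 and 8.53 in their controls, and its interval ran from -0.02 to 0.27. Ephx2 read 8.53, 8.63 and 8.94 after MSL1 RNAi, against 8.44, 8.45 and 8.96 in the controls, with an interval of -0.04 to 0.21.

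**Figure D2:**
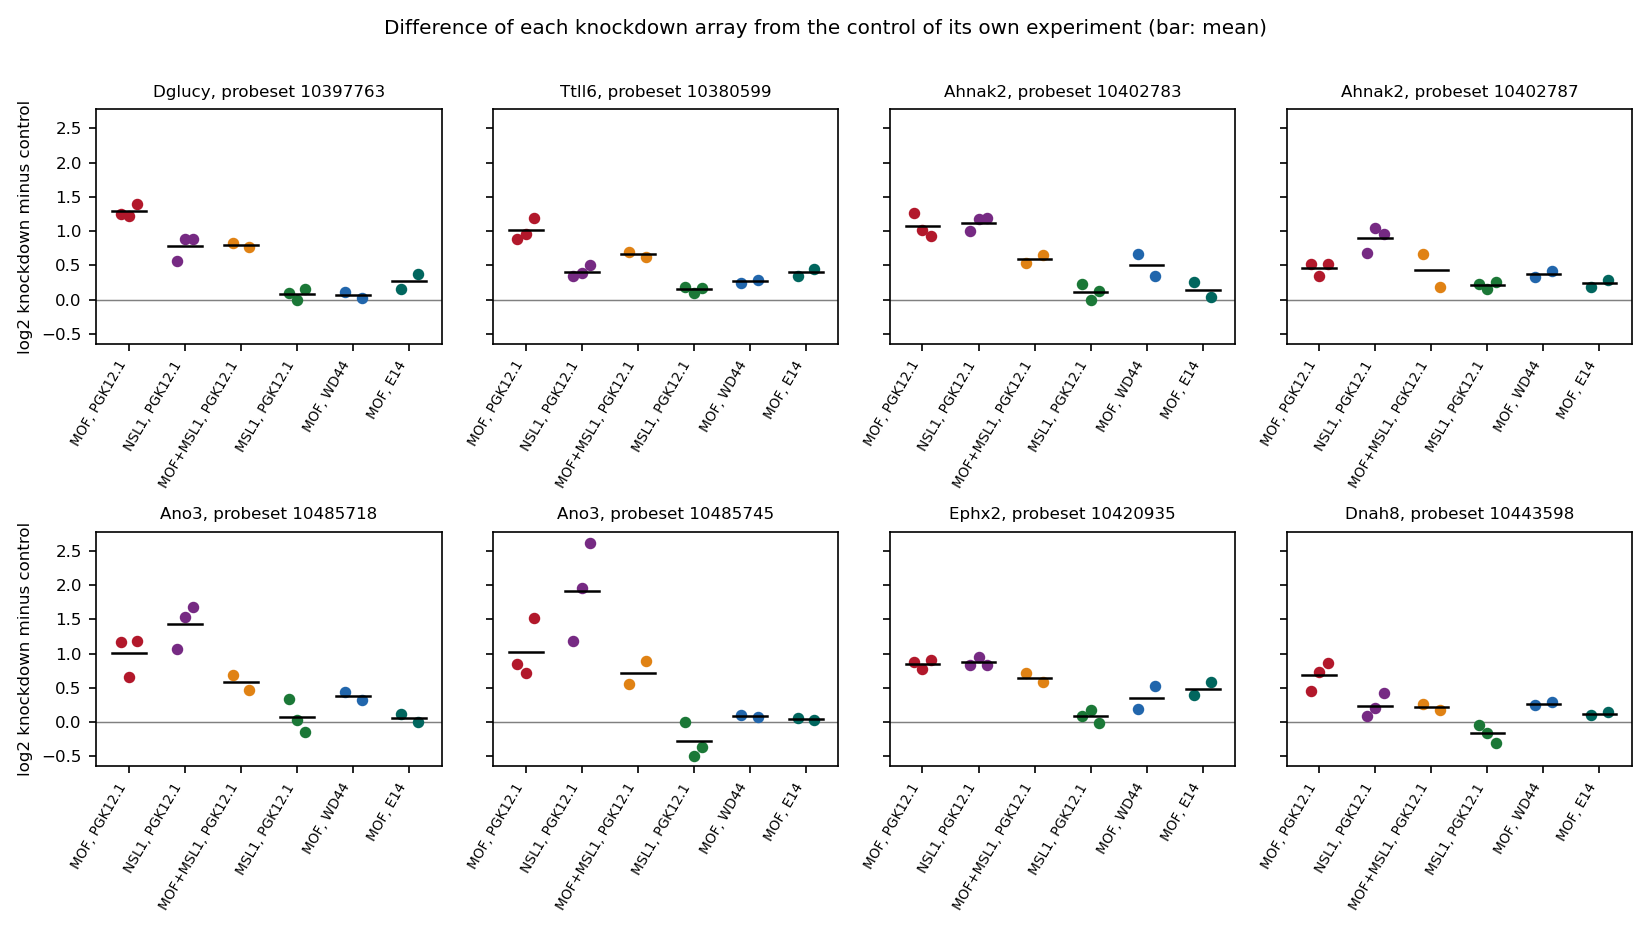
Difference in log2 value between each knockdown array and the control of its own experiment (y axis, points) with the mean (bar), for the 8 probesets in the 6 knockdowns (x axis). Dglucy differences are 1.22 to 1.39 after MOF RNAi in PGK12.1, 0.56 to 0.89 after NSL1 RNAi, 0.77 and 0.82 after combined RNAi, and 0.00 to 0.15 after MSL1 RNAi.

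MOF RNAi in the male line WD44 raised 3 of the 6 genes, Ephx2, Ahnak2 and Ttll6, against 4.38% of tested probesets called higher. Ephx2 read 8.83 and 9.13 after MOF RNAi, against 8.64 and 8.61 in the controls, a log2 fold change of 0.36 ± 0.08 (adjusted p = 0.0108 by limma). Ahnak2 read 10.33 and 10.37 after MOF RNAi, which was 0.33 and 0.41 above their own controls, and rose by 0.37 ± 0.10 (adjusted p = 0.0318 by limma). Ttll6 read 9.29 and 9.33 after MOF RNAi, against 9.05 and 9.04 in the controls, and rose by 0.27 ± 0.07 (adjusted p = 0.0306 by limma). In all 3 genes each MOF array lay above its own control, as did 6843 and 7493 of the 16283 tested probesets in experiments 1 and 2.

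Dglucy stayed closest to its controls in WD44. It read 7.09 and 6.95 after MOF RNAi, against 6.98 and 6.93 in the controls, a log2 difference of 0.07 with a 95% interval of -0.12 to 0.25. Relative to the array median, Dglucy controls stood at -0.97 to -0.91 in WD44 and -0.29 to -0.26 in E14, against 0.76 to 1.92 in PGK12.1. Whether this low signal in the male lines held its differences down was not tested. Dnah8, at 0.27 (adjusted p = 0.0664 by limma), and Ano3, at 0.38 (adjusted p = 0.0869 by limma), were not called, though Dnah8 was with cyclic loess (0.0402). Without the experiment as a block none of the 6 genes was called in WD44 by limma, with Ttll6 at 0.148, Ahnak2 at 0.247 and Ephx2 at 0.396, and 0 to 1 were called when any 1 of the 4 arrays was left out. Ephx2 differed by 0.19 without either array of experiment 2.

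MOF RNAi in the male line E14 raised 2 of the 6 genes, Ephx2 and Ttll6, against 3.6% of tested probesets called higher. Ephx2 read 9.43 and 9.55 after MOF RNAi, against 9.03 and 8.97 in the controls, a log2 fold change of 0.49 ± 0.08 (adjusted p = 0.00211 by limma). Ttll6 read 8.81 and 8.89 after MOF RNAi, against 8.46 and 8.45 in the controls, and rose by 0.40 ± 0.07 (adjusted p = 0.00557 by limma). For both genes each MOF array lay above its own control, as did 8360 and 7600 of the 16283 tested probesets in experiments 1 and 2.

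Dglucy read 6.68 and 6.84 after MOF RNAi in E14, against 6.52 and 6.47 in the controls, a log2 difference of 0.27 with an interval of 0.08 to 0.45 that did not pass the adjusted test (adjusted p = 0.0723 by limma). With array weights Dglucy was called there (adjusted p = 0.0401 by limma). Ano3 read 5.57 and 5.42 after MOF RNAi, against 5.45 and 5.42 in the controls, and its groups met at 5.42. Ahnak2, at 0.24 (adjusted p = 0.176 by limma), and Dnah8, at 0.12 (adjusted p = 0.475 by limma), were not called. Without the experiment as a block Ephx2 was lost (adjusted p = 0.234 by limma) and Ttll6 was called (0.0281), and 0 to 1 genes were called when any 1 of the 4 arrays was left out.

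The differences between knockdown effects were tested where neither side had chosen the genes. Higher rises after NSL1 RNAi than after combined RNAi were called for 3 of the 6 genes, Ano3, Ahnak2 and Ephx2, and a lower one for Ttll6, where 11.3% of tested probesets were called higher and 15.2% lower. The difference was 0.95 ± 0.13 for Ano3 (adjusted p = 0.000158 by limma), 0.51 ± 0.10 for Ahnak2 (0.00159), 0.24 ± 0.07 for Ephx2 (0.0243) and -0.24 ± 0.07 for Ttll6 (0.0183). The Ephx2 call was lost without the block (adjusted p = 0.423 by limma) and without any 1 of the NSL1 and combined arrays of experiments D and E. The Ttll6 call was lost without the NSL1 array or the combined array of experiment D, at 0.116 and 0.269, and the Ahnak2 call without the combined array of experiment E, at 0.0826. For Dglucy the difference was 0.03, with a 95% interval of -0.15 to 0.20.

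The rise after NSL1 RNAi was higher than that after MSL1 RNAi for all 6 genes, by 0.23 to 1.32, where 15.4% of tested probesets were called higher, and leaving out 1 array left 4 to 6 genes called, with Ttll6 and Dnah8 the ones lost. The rise after combined RNAi was higher than that after MSL1 RNAi for Dglucy, Ephx2 and Ttll6, by 0.60, 0.56 and 0.47, where 0.24% of tested probesets were called higher. Without the block Dglucy was lost, at 0.24 (adjusted p = 0.131 by limma), Ephx2 stood at 0.95 and Dnah8 was called, at 0.39 (0.0113). Leaving out 1 array left 0 to 3 of the 6 genes called.

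Whether a rise was larger in PGK12.1 than in the male lines was tested with combined RNAi, a comparison added after the values were seen. The change of Kat8 itself differed by -0.03 between combined RNAi in PGK12.1 and MOF RNAi in WD44, with a 95% interval of -0.25 to 0.19, and by -0.19 against MOF RNAi in E14, with an interval of -0.42 to 0.03. Dglucy rose by 0.66 ± 0.12 more in PGK12.1 than in WD44 (95% interval 0.41 to 0.92, adjusted p = 0.0214 by limma), the one gene of the 6 called, where 0.792% of tested probesets were called higher. Without the block this call was lost (adjusted p = 0.263 by limma), and it was lost when any 1 of the 8 arrays was left out, with values of 0.59 to 0.71. Dglucy lay below the array median on every WD44 array. The other 5 genes were not called, with differences of 0.37 for Ttll6 (interval 0.16 to 0.59) and 0.29 for Ephx2 (interval 0.07 to 0.52), and of -0.004 for Ahnak2 (interval -0.31 to 0.30).

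Against E14 none of the 6 genes was called by limma, where 0.0614% of tested probesets were called higher. At an unadjusted p under 0.05, 3 of the 6 genes passed, as did 1899 of all tested probesets. Dglucy had the largest difference on the brighter probesets, 0.46 with an interval of 0.21 to 0.72 (adjusted p = 0.172 by limma). Between the male lines none was called by limma, where 0.54% of tested probesets were called higher. On the brighter probesets none of the 6 passed an unadjusted p under 0.05, against 2700 of all tested probesets, and the smallest adjusted p was 0.437, for Dglucy, whose interval was -0.46 to 0.06. The other Ahnak2 probeset, 10402783, had a change 0.36 larger in WD44 than in E14, with an interval of 0.07 to 0.65 and an adjusted p of 0.196 by limma. In the comparisons of combined RNAi with the male lines the MSL1 siRNA differs along with the line, and its part in the result was not tested.

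**Figure D3:**
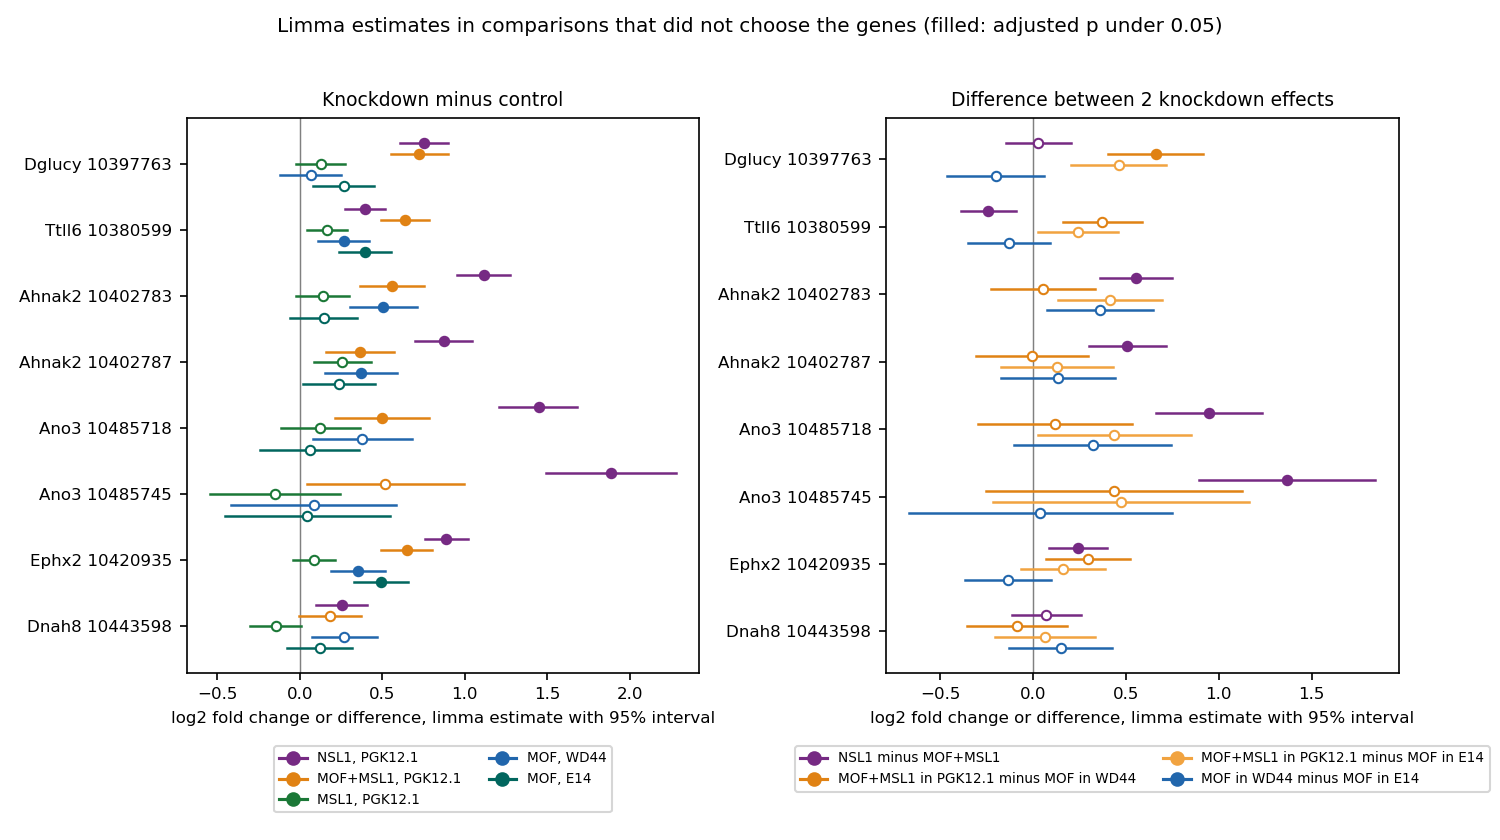
Limma estimates (points) with 95% intervals (lines) on the log2 scale (x axis) for the 8 probesets (y axis), with knockdown minus control on the left and differences between 2 knockdown effects on the right, filled where the adjusted p is under 0.05. Ano3 lies farthest right after NSL1 RNAi, at 1.45 on its brighter probeset, and Dglucy is the one gene filled in the comparison of PGK12.1 with WD44, at 0.66.

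The differences of some pairs of genes ran more alike than others. Over the 15 differences of a knockdown array from its own control, Dglucy and Ttll6 had a Pearson r of 0.911, and Ahnak2 and Ano3 of 0.884. Ttll6 and Ahnak2 had the lowest r of any pair, 0.217. These differences share control arrays and lines, and the differences after MOF RNAi in PGK12.1 chose the genes, so r describes these arrays. The probesets of Ahnak2 had an r of 0.73 with each other and those of Ano3 of 0.946.

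Among 2811 genes that varied over the same differences, Dglucy was most like Dennd2c (r = 0.944), Ttll6 (0.911) and Lrrc28 (0.905). Ttll6 and Dnah8 were both most like Ddhd2, with r of 0.921 and 0.912. Ano3 was most like Rb1 (0.97), Vcan (0.945) and Arap2 (0.939), and Ahnak2 most like Vwa5a (0.94), Ahcyl2 (0.94) and Tigd2 (0.926). Ephx2 was most like Bach1 (0.909), Rragd (0.902) and Sdc4 (0.883).

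**Figure D4:**
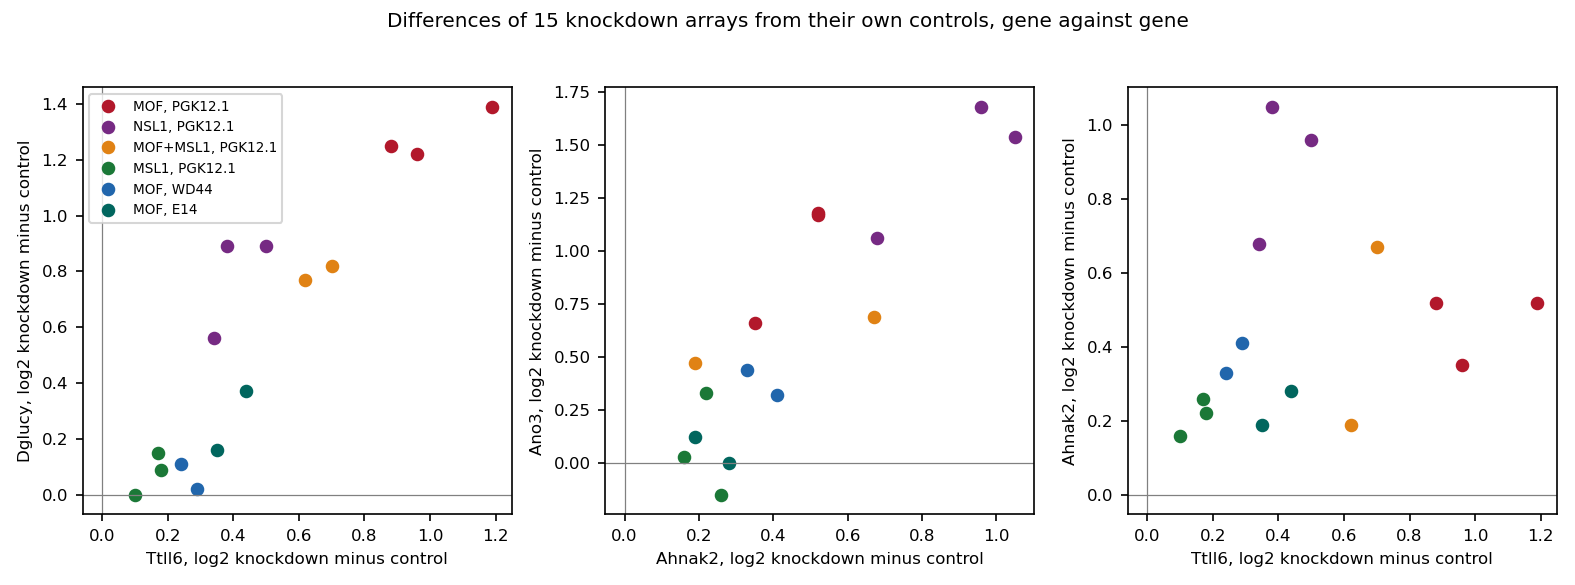
Log2 differences of the 15 knockdown arrays from their own controls, 1 point per array, for Dglucy against Ttll6, Ano3 against Ahnak2 and Ahnak2 against Ttll6 (brighter probeset of each gene). Points of the first pair run along a line (r = 0.911), while for Ahnak2 against Ttll6 (r = 0.217) the NSL1 arrays stand high on the Ahnak2 axis and the PGK12.1 MOF arrays far right on the Ttll6 axis.

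The relatives of the 6 genes, from lists of their families, moved both ways. Lower calls made up 21.4% of tested probesets after NSL1 RNAi, 3.19% after combined RNAi, 7.98% in WD44 and 4.73% in E14. Higher calls made up 18.4%, 3.24%, 4.38% and 3.6%, in the same order. Of 5 other axonemal dynein heavy chains tested, none rose and 1 fell after NSL1 RNAi, none changed after combined RNAi or in E14, and 2 rose in WD44, Dnah3 by 0.30 and Dnah17 by 0.22. Of 9 other dynein subunits and assembly factors, none rose in any of these comparisons and 3 fell after NSL1 RNAi. These were Dnaaf3, an assembly factor, at -0.69, Dnal1, a light chain, at -0.44, and Dnaaf4, an assembly factor, at -0.33. In WD44 Dnaaf3, at -0.345, and Dnaaf5, at -0.325, were called lower, and in E14 Dnaaf5, at -0.205.

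Of 10 other tubulin tyrosine ligase-like genes, 1 rose and 3 fell after NSL1 RNAi. Ttll1, which encodes the catalytic subunit of another polyglutamylase, fell where Ttll6 rose in 3 comparisons, with log2 fold changes of -0.56 after NSL1 RNAi, -0.46 in WD44 and -0.35 in E14 (adjusted p = 2.2e-05, 0.00804 and 0.0336 by limma). After combined RNAi Ttll1 differed by -0.12 and was not called (adjusted p = 0.511 by limma). Of 2 tubulin deglutamylases, Agtpbp1, which shortens glutamate chains, rose by 0.47 after NSL1 RNAi. Multiciliated cell markers moved both ways after NSL1 RNAi, with Tppp3 and Ccdc153 higher and Tekt1 and Rsph1 lower among 5 tested. Of all tested probesets 18.4% were called higher and 21.4% lower there. Rsph1 was also called lower after combined RNAi, at -0.30, and in E14, at -0.34.

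Of 6 other anoctamins, 3 rose and 3 fell after NSL1 RNAi, from Ano1 at 0.38 to Ano9 at -1.33, and none changed in the other 4 comparisons. The shares of all tested probesets after NSL1 RNAi were 18.4% higher and 21.4% lower. Ahnak, the paralogue of Ahnak2, rose by 0.40 after NSL1 RNAi (adjusted p = 3.33e-05 by limma) and by 0.40 in WD44 (adjusted p = 0.0035 by limma). It differed by 0.19 after combined RNAi and by -0.03 in E14, neither of which was called.

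Among 7 other epoxide hydrolases and fatty acid oxidising P450s, 1 rose and 3 fell after NSL1 RNAi. Of all tested probesets 18.4% were called higher and 21.4% lower in that comparison. Ephx1, which encodes microsomal epoxide hydrolase, rose by 0.30 after NSL1 RNAi (adjusted p = 0.00119 by limma), by 0.34 after combined RNAi (0.0148) and by 0.49 in E14 (0.00247). In WD44 none of the 7, Ephx1 included, was called higher, and Ephx3, at -0.495, and Lta4h, at -0.255, were called lower. Cyp4f16, which encodes a P450 of the Cyp4f family, fell by 1.23 after NSL1 RNAi. Cyp4f13, at -0.51, and Lta4h, at -0.28, were also called lower there. In E14 Cyp4f16 was called lower, at -0.31. Of 10 other enzymes of glutamate and D-amino acids, 2 rose and 5 fell after NSL1 RNAi, from Aldh4a1 at 0.305 to Oplah at -0.324. In WD44 3 of these 10 fell, where 7.98% of all tested probesets were called lower. In E14 Srr, which encodes serine racemase, rose by 0.36, where 3.6% were called higher.

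The 24 nearest tested neighbours, 2 on each side of each gene in RefSeq order, moved both ways. After NSL1 RNAi 5 rose and 6 fell, where 18.4% of all tested probesets were called higher and 21.4% lower. After combined RNAi 3 rose and 2 fell, where 3.24% were called higher and 3.19% lower. In each of WD44 and E14 1 rose and 1 fell. The shares of all tested probesets were 4.38% higher and 7.98% lower in WD44, and 3.6% and 4.73% in E14. Ptk2b, a tyrosine kinase gene next to Ephx2, rose by 0.59 after NSL1 RNAi and by 0.32 after combined RNAi. Cep170b, next to Ahnak2, was the one neighbour called after MSL1 RNAi, at 0.34.

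Markers of cell types that were called stand beside these results. Of all tested probesets, 18.4% were called higher and 21.4% lower after NSL1 RNAi, and 3.24% and 3.19% after combined RNAi. In WD44 4.38% were called higher and 7.98% lower, and in E14 3.6% and 4.73%. In WD44, 3 of 5 tested feeder fibroblast markers rose, Col1a1 by 0.38 and Col1a2 and Col3a1 by 0.31 each, close in size to the rises of Ahnak2, Ephx2 and Ttll6 there. The mean of the 9 measured feeder markers lay 0.09 to 0.11 below the array median in WD44 MOF arrays and 0.17 to 0.21 below it in WD44 control arrays. None of the 5 was called in E14 or after combined RNAi. Of 5 trophectoderm markers, Krt18 and Hand1 also rose in WD44, by 0.45 and 0.36, and of 5 primitive endoderm markers Dab2 fell, by 0.33. Of 5 neuronal markers Map2 was called lower in WD44, at -0.295, with a list median of -0.175. After NSL1 RNAi 2 of 5 neuronal markers rose, Neurod1 by 1.23 and Tubb3 by 0.26, with a list median of 0.04. Neurod1 also rose by 0.66 after combined RNAi. Of 5 feeder markers Thy1 was called lower after NSL1 RNAi, at -0.23. After NSL1 RNAi 2 of 5 primitive endoderm markers rose, Gata6 by 0.37 and Dab2 by 0.45, with a list median of 0.01. Of 5 trophectoderm markers Eomes rose, by 0.53, and Krt18 fell, by 0.25, while 2 of 10 ES cell markers fell, Utf1 by 0.25 and Tdgf1 by 0.19. These trophectoderm and ES cell counts lay near the shares of all tested probesets. In E14 the ES cell marker Sox2 was called lower, at -0.21. The part of these cells in the rises was not tested, and in bulk RNA more cells of a type and more RNA per cell cannot be told apart.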

How the data were processed

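RNA of 27 ES cell cultures was measured on Affymetrix arrays. The deposited log2 expression values came from RMA in Affymetrix Expression Console, per the submitters' processing notes. Tool versions and the genome build are not given in the sources used here. RMA corrects background, normalizes and summarizes probes, but array medians still stepped between sets of experiments. The number of arrays limits the precision. A single gene symbol was found for 21789 of 35556 probesets, several for 1621 and none for 12146, from the platform annotation with symbols updated through RefSeq (GRCm38.p6).

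All 27 arrays were fitted with limma 3.58.1 in R 4.3.3, with the experiment as a block and a term per knockdown (9 residual degrees of freedom), over the 16283 probesets that had a gene symbol and averaged 6 or more on the log2 scale. Estimates draw on every array of an experiment, so they can differ slightly from the mean of the differences within experiments. P-values were adjusted by Benjamini-Hochberg over all of them, with a threshold of 0.05. The labels give each experiment its own control array, which is the source of the pairing. As a check, 5 of the 9 knockdown arrays in groups of 3 deviated most like their own control. In groups of 2 the r with the own and the other control are equal and opposite, so the check did not settle the pairing. Over all 15 arrays r with the own control was -0.004 to 0.867. The fit was also run on simulated data with 200 changed genes, built from the same block model, which takes the pairing as given and cannot test it.

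The members and lists were chosen with earlier results of these data known. The genes named are the 6 members, the targeted genes, some relatives of each list, and the 3 genes most like each member. The last were taken among genes with an SD of at least 0.2 over the differences. Relatives named were picked from those called, after their values were seen, and some called with a smaller p are not named. Neighbours and markers named were chosen after their values were seen. A gene with several probesets is given by the one with the highest mean. Alternatives were the fit without the block, no filter, a mean of at least 7, arrays centred on their medians, cyclic loess, array weights and each array left out. The comparisons of combined RNAi with the male lines were added after seeing the data.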

Additional observations from a re-analysis of the deposited data

How the results depend on the processing

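No called value of the 6 genes changed sign under the alternatives run. Of the values of single probesets under these, 991 kept their direction and call, 34 that were not called changed sign, 89 lost the call and 8 gained it. Without the replicate block (paired controls not used), the genes called fell to 3 after combined RNAi, 0 in WD44, 1 in E14 and 0 in the difference between combined RNAi and MOF RNAi in WD44. With no filter on low values 3 were called after combined RNAi. That difference against WD44 called 2 genes with a mean of at least 7 and 2 with array weights, which also called 1 against E14. The cause was not tested. The block moved no other count of genes called by over 1.5 times.

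Leaving out each array in turn gave 5 to 6 genes called after NSL1 RNAi, 3 to 4 after combined RNAi, 0 to 0 after MSL1 RNAi, 0 to 1 in WD44 and 0 to 1 in E14. The differences called 2 to 4 genes for NSL1 minus combined RNAi, 4 to 6 for NSL1 minus MSL1, 0 to 3 for combined minus MSL1 RNAi, and 0 to 0 between the male lines and for combined RNAi minus MOF RNAi in either male line. The median of the 6 genes after MOF RNAi in PGK12.1 ranged from 0.872 to 0.962.

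Counts over all probesets moved more. Higher calls numbered 14 without the block against 714 in WD44, 44 against 586 in E14, 1750 against 2999 after NSL1 RNAi and 438 against 1545 after MOF RNAi in PGK12.1. Array weights gave 4692 after NSL1 RNAi, 1232 against 528 after combined RNAi and 126 against 16 after MSL1 RNAi. With arrays centred on their medians, calls split into 401 higher and 2220 lower in WD44, against 714 and 1299, and into 975 and 3051 after MOF RNAi in PGK12.1, against 1545 and 2271. Centring took the call of Ttll6 in WD44 (adjusted p = 0.0578 by limma), and cyclic loess took that of Ano3 after combined RNAi (0.0509).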
